A study of Mus musculus with 9 samples.

Results

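The immunoglobulin variable (V) gene segments described here are 9 of the 17 that have a probe set annotated with their symbol alone (starting with Ighv, Igkv or Iglv). They were chosen by signal: the brightest such probe set of each segment had to exceed the median of its array on 3 or more of 9 arrays, which 12170 of 22180 named genes did. The arrays, single-colour and 3 per genotype, measured follicular B cells sorted from the spleen of mice aged 6 to 12 weeks. One genotype, ε/ε, carries on both chromosomes an Igh allele named after the constant region of IgE; a second, γ1/γ1, carries one named after that of IgG1; the third has wild-type Igh. VJk5 stands in every genotype label, wild-type included, and is explained in none. The series describes the mice as polyclonal; how either allele was made is not given in the labels. Since nothing says that the 3 independent replicates of a genotype are separate animals, p-values speak only of the spread among these samples, which may be technical.

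A V segment encodes most of the variable domain of an antibody chain. In each B cell precursor, recombination joins 1 V segment to a J segment (through a D segment in the heavy chain), and a mature B cell generally transcribes 1 productive heavy chain and 1 productive light chain, either κ (Igkv) or λ (Iglv). In RNA pooled from many B cells, the signal of a V segment therefore depends on how many cells use it and on how much RNA each makes; fewer cells of a kind and less RNA per cell cannot be told apart here. Related V segments have similar sequences, so which segment of a family a probe set measured is uncertain.

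The 9 V segments were 1 heavy chain segment (Ighv1-53), 1 λ segment (Iglv1) and 7 κ segments (Igkv15-103, Igkv6-23, Igkv5-43, Igkv4-72, Igkv4-70, Igkv8-30 and Igkv1-133). All 17 V segments were matched by gene identifier to RefSeq's GRCm38.p6 gene table, which lists each as a V segment and none as a pseudogene. Ighv1-53 lies on chromosome 12, Iglv1 on chromosome 16 and the 7 κ segments on chromosome 6. In the order of positions in that table, the κ segments stand at places 6 (Igkv1-133), 39 (Igkv15-103), 80 (Igkv4-72), 83 (Igkv4-70), 117 (Igkv5-43), 131 (Igkv8-30) and 139 (Igkv6-23) of 162 annotated κ V segments and V pseudogenes. They were thus spread over the locus, and Igkv4-72 and Igkv4-70, which share a family number, were the closest pair.

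The level chose these members, so that they were measured above the array median is no finding. The array medians lay between 3.53 and 3.69 on the log2 scale. Of the members 6 were above them on every array: Ighv1-53, Iglv1, Igkv15-103, Igkv6-23, Igkv5-43 and Igkv4-72. Igkv8-30 was above on 7 arrays, Igkv4-70 on 5 and Igkv1-133 on 3, which were ε/ε replicates 1 and 3 and γ1/γ1 replicate 1. No member passed through the arrays of a single genotype. At the threshold, the third-highest reading of Igkv1-133 lay 0.014 above its array median, while that of Igkv4-91, the nearest V segment left out, lay 0.11 below. Passing the filter does not show that a segment was transcribed: 52.9% of the V segments passed, against 54.9% of all named genes, and so did 4 of 8 V segments of the T cell receptor, although Cd3d, Cd3e and Cd3g, the CD3 chains that define T cells, were below the median on all 9 arrays.

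All 9 B cell identity markers with a probe set were above the array median on every array. Of 12 marginal zone B cell markers, a list chosen with results of these arrays known, 10 were tested. Dtx1, Hes1, Asb2, Myof and Ackr3, 5 of the 10, rose in ε/ε against wild-type, where 2.33% of all genes rose. The other tested markers did not pass: Cr2, Notch2 and Cd9 differed by 0.21, 0.16 and 0.065, and Cd1d1 and S1pr1 by -0.17 and -0.35. The mean over the list was 5.54 to 5.64 on ε/ε arrays, 5.04 to 5.20 on γ1/γ1 arrays and 4.85 to 4.98 on wild-type arrays. Of 8 follicular B cell markers, chosen likewise, 4 (Zfp318, Cd200, Satb1 and Cd55) fell in ε/ε against wild-type, where 4.02% of all genes fell. The other follicular markers did not pass: Cxcr5 and Fcer2a differed by 0.69 and 0.54, and Klf2 and Ccr7 by -0.25 and -0.050. The 16 macrophage markers averaged 6.27 in ε/ε replicate 1, 3.90 to 4.31 in the other ε/ε arrays, 3.55 to 3.73 on γ1/γ1 arrays and 3.59 to 3.68 on wild-type arrays. The arrays of ε/ε replicate 1 (5.25) and γ1/γ1 replicate 1 (4.53) were low in Xist, an RNA made from the silenced X chromosome of female cells, which was 10.37 to 10.79 on the other 7. In 45.9% of all probe sets, at least 2 arrays held the same deposited value to the last digit.

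One of the 9 V segments, the κ segment Igkv15-103, differed between genotypes. It was higher in ε/ε than in wild-type cells, a contrast in which 6.34% of all genes tested passed, with γ1/γ1 cells between them. The heavy chain segment Ighv1-53 read lower on all 6 mutant arrays than on the wild-type arrays and missed the threshold, and the λ segment and the other 6 κ segments overlapped between genotypes. Over all genes tested, 28.4% did not overlap between ε/ε and wild-type, and 12.4% did not overlap between γ1/γ1 and wild-type. The questions were whether follicular B cells that carry the ε or the γ1 constant region differ in V segment transcripts from cells with the wild-type locus, and from each other. Each contrast came from 1 linear model of all 12170 genes in limma, with p-values adjusted by the Benjamini-Hochberg method over those genes and a threshold of 0.05.

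**Figure D1:**
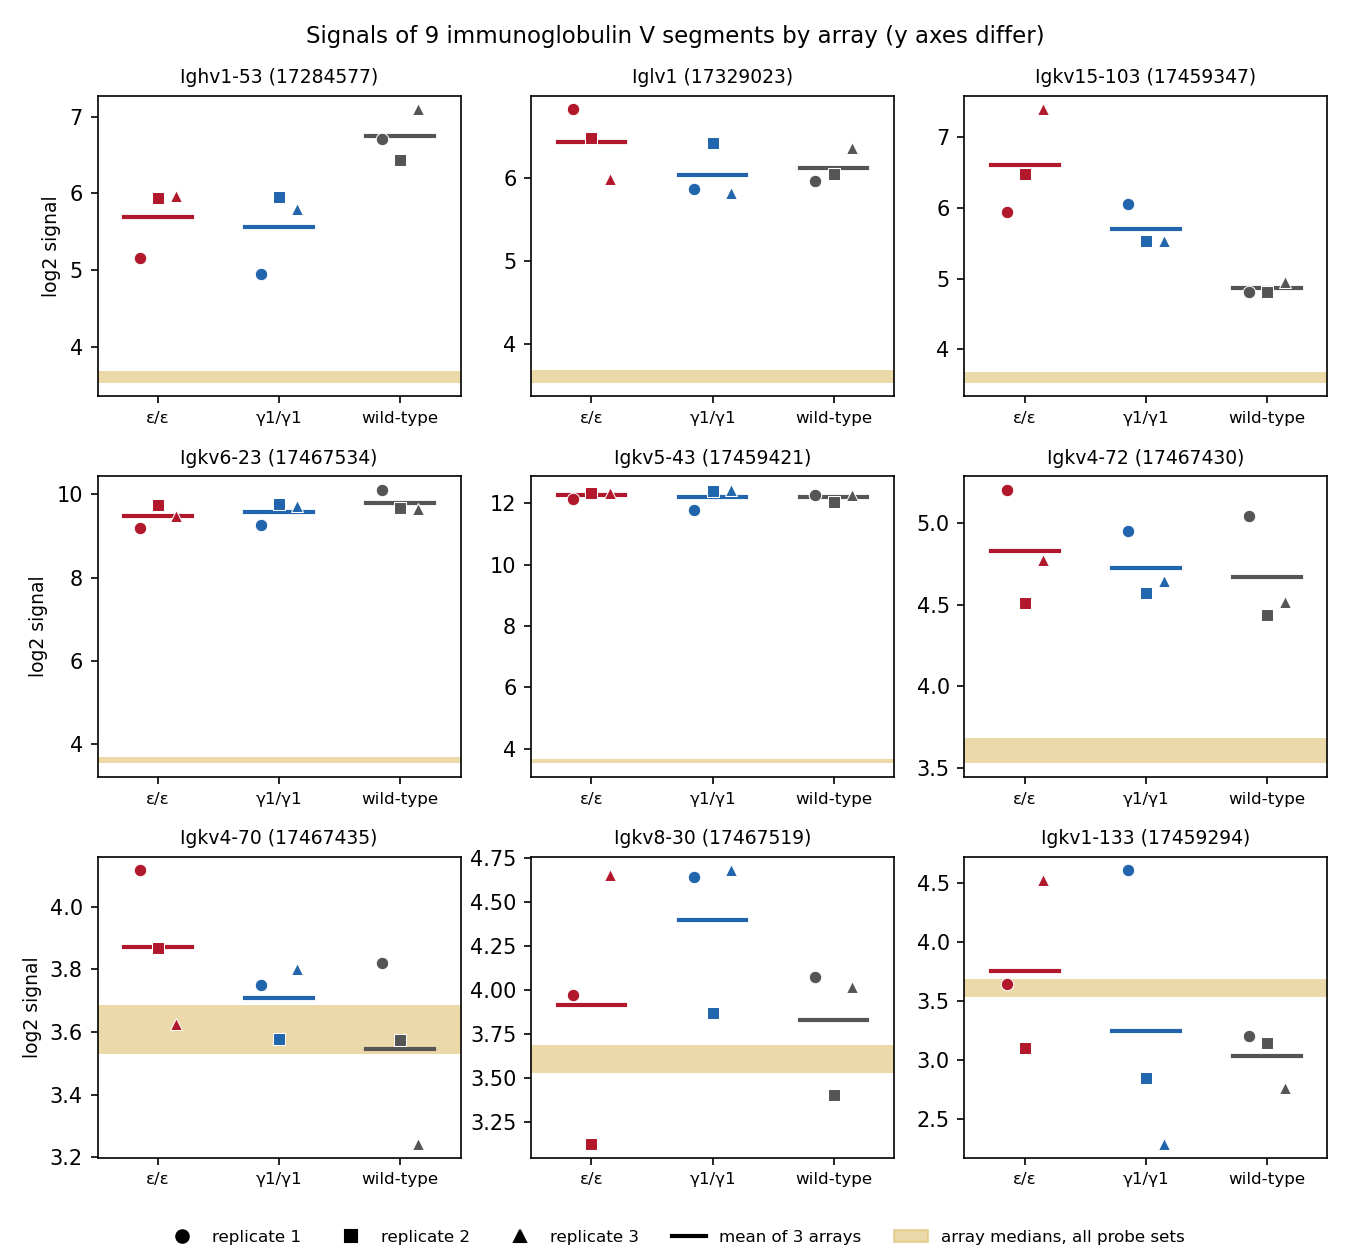
Log2 signal of each of the 9 V segments (probe set in parentheses) on the 3 arrays of ε/ε, γ1/γ1 and wild-type cells; bars are means of 3 arrays, the shaded band spans the array medians of 3.53 to 3.69, and the y axes differ. Igkv15-103 lies at 5.94 to 7.39 in ε/ε and at 4.82 to 4.95 in wild-type cells, while Ighv1-53 lies at 5.16 to 5.97 in ε/ε and at 6.44 to 7.10 in wild-type cells.

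Igkv15-103 read 5.94, 6.47 and 7.39 on the ε/ε arrays, 6.05, 5.53 and 5.53 on the γ1/γ1 arrays and 4.82, 4.82 and 4.95 on the wild-type arrays. Every array of either mutant genotype was above every wild-type array, and ε/ε and γ1/γ1 overlapped. Its mean level over 3 arrays (± SD) was 6.60 ± 0.73 for ε/ε, 5.70 ± 0.31 for γ1/γ1 and 4.86 ± 0.08 for wild-type cells. The rise in ε/ε over wild-type was 1.74 on the log2 scale (SE 0.31, 3.34-fold, limma adjusted p = 0.0134), with a 95% interval of 1.05 to 2.43. In γ1/γ1 against wild-type the difference was 0.84 (SE 0.31, limma adjusted p = 0.665), and in ε/ε against γ1/γ1 it was 0.90 (SE 0.31, limma adjusted p = 0.148). Igkv15-103 was also the member called by the moderated F test for any difference among the genotypes (limma adjusted p = 0.0313), a call lost without a filter (limma adjusted p = 0.0517) and when ε/ε replicate 2, γ1/γ1 replicate 2 or 3, or any 1 of the wild-type arrays was left out. The wild-type SD of 0.08 was the smallest of any member in any genotype, and the equal γ1/γ1 readings in replicates 2 and 3 were the same deposited value of 5.5254, which no other probe set held on those arrays.

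The call of Igkv15-103 in ε/ε over wild-type was lost without wild-type replicate 2 (1.72, limma adjusted p = 0.0618) or wild-type replicate 3 (1.79, adjusted p = 0.0524), with the difference nearly as large. Of the ε/ε arrays, replicate 1 had both the lowest Igkv15-103 and the highest macrophage markers; without it the difference was 2.07 (limma adjusted p = 0.00906), and without ε/ε replicate 3, which had the highest Igkv15-103, it was 1.35 (limma adjusted p = 0.0152). With only the 7 arrays of high Xist it was likewise 2.07 (adjusted p = 0.0113). The mean over the marginal zone markers was higher on all 3 ε/ε arrays than on the other 6, and the part of these markers in the result was not tested.

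Ighv1-53 belongs to Ighv1, the largest heavy chain V family of the mouse. It read 5.16, 5.94 and 5.97 on the ε/ε arrays, 4.95, 5.95 and 5.79 on the γ1/γ1 arrays and 6.72, 6.44 and 7.10 on the wild-type arrays. All 6 mutant arrays lay below all 3 wild-type arrays, and replicate 1 was the lowest in both mutant genotypes. Its mean level over 3 arrays (± SD) was 5.69 ± 0.46 for ε/ε, 5.57 ± 0.54 for γ1/γ1 and 6.75 ± 0.33 for wild-type cells. The difference from wild-type was -1.06 in ε/ε (SE 0.31, limma adjusted p = 0.0659) and -1.19 in γ1/γ1 (SE 0.31, limma adjusted p = 0.482), so neither passed. The 2 comparisons share the wild-type arrays. The ε/ε level minus the γ1/γ1 level was 0.12, with a 95% interval of -0.56 to 0.81 (limma adjusted p = 0.858). Among the 7 high-Xist arrays the ε/ε difference from wild-type was -0.80 (adjusted p = 0.0670), and without γ1/γ1 replicate 1, the ε/ε difference passed (adjusted p = 0.0425).

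The other 2 heavy chain V segments with a probe set of their own, Ighv1-47 and Ighv1-54, are of the same family and were below the array median on every array. Ighv1-47 read 1.65 to 2.42 on the ε/ε arrays, 1.82 to 2.08 on the γ1/γ1 arrays and 2.20 to 3.34 on the wild-type arrays. Ighv1-54 read 1.64 to 3.16 over the 9 arrays, and the genotypes overlapped. Neither passed in any contrast of a fit without the filter on level.

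Iglv1, the V segment of the λ1 chain that makes up most of the mouse λ repertoire, read 6.83, 6.49 and 6.00 on the ε/ε arrays, 5.87, 6.43 and 5.82 on the γ1/γ1 arrays and 5.96, 6.06 and 6.37 on the wild-type arrays. The 3 genotypes overlapped. The differences were 0.31 in ε/ε against wild-type (95% interval -0.23 to 0.84, limma adjusted p = 0.464) and 0.40 in ε/ε against γ1/γ1 (interval -0.14 to 0.93, limma adjusted p = 0.387). In γ1/γ1 against wild-type the interval was -0.62 to 0.45.

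Among the other κ segments, Igkv6-23 read 9.19, 9.74 and 9.49 on the ε/ε arrays, 9.27, 9.77 and 9.72 on the γ1/γ1 arrays and 10.11, 9.66 and 9.64 on the wild-type arrays. Its differences from wild-type were -0.33 in ε/ε (SE 0.21, limma adjusted p = 0.349) and -0.22 in γ1/γ1 (SE 0.21, limma adjusted p = 0.860), and the difference between ε/ε and γ1/γ1 was -0.11. The intervals left room for a fall of at most 0.79 in ε/ε and 0.68 in γ1/γ1.

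Igkv5-43 was read by 3 probe sets that disagreed. Probe set 17459421, the brightest, read 12.14, 12.33 and 12.32 on the ε/ε arrays, 11.79, 12.40 and 12.44 on the γ1/γ1 arrays and 12.26, 12.05 and 12.27 on the wild-type arrays. Its range over all 9 arrays was 0.65, the narrowest of the members, and the 95% intervals of its 3 differences lay within -0.40 and 0.48. Probe sets 17467483 and 17467489 of the same segment read 1.78 to 5.08 and 1.87 to 4.25, mostly below the array medians. Which of the 3 follows Igkv5-43 transcripts is not given in the sources used here, so the level of this segment is uncertain.

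**Figure D2:**
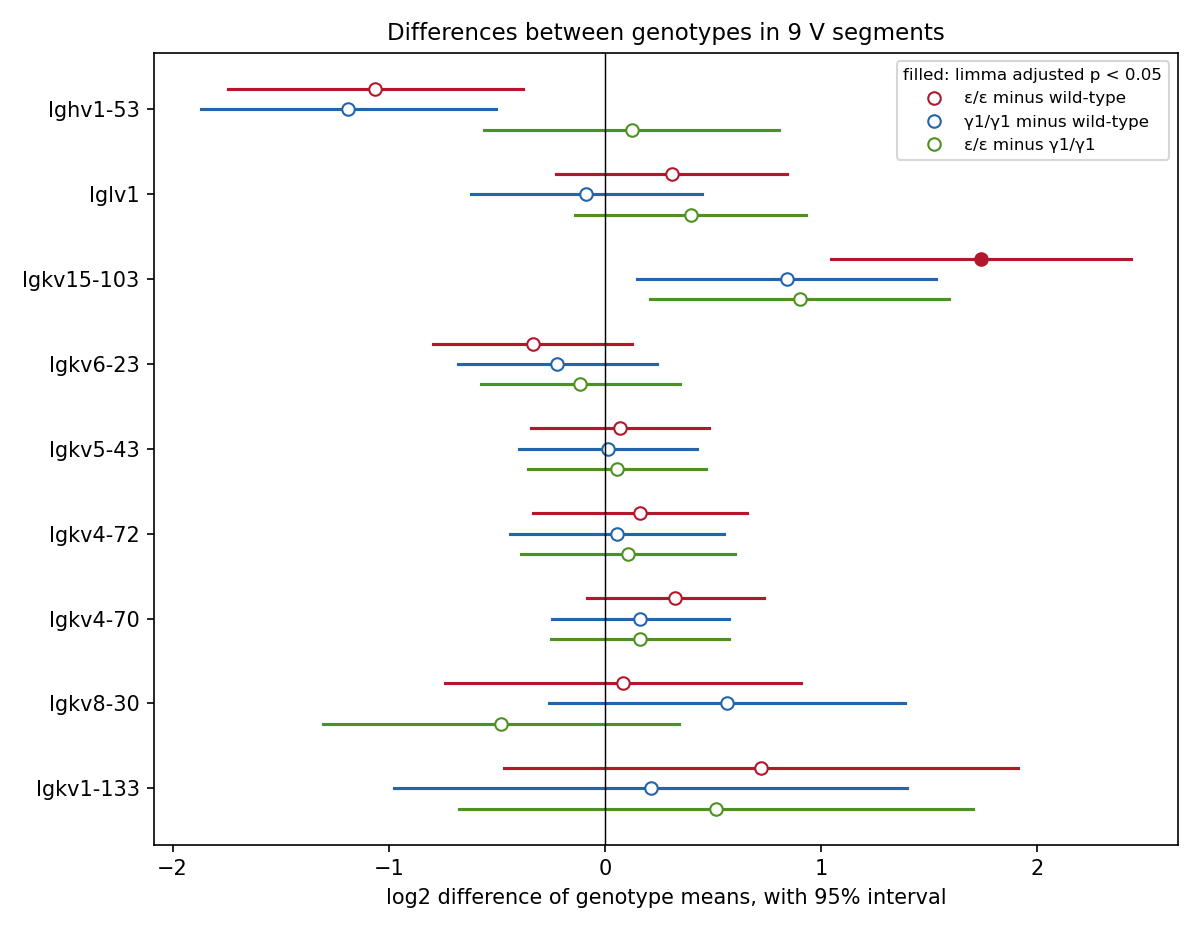
Log2 difference between genotype means for each of the 9 V segments (circles) with its 95% interval (lines), with 1 colour per contrast (the mutants against wild-type, and ε/ε against γ1/γ1); filled circles passed at a limma adjusted p under 0.05. The single filled circle is Igkv15-103 in ε/ε minus wild-type at 1.74, and both mutant differences of Ighv1-53 lie near -1.1 with open circles.

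Of the 4 remaining κ segments, Igkv4-72 read 5.20, 4.51 and 4.77 on the ε/ε arrays, 4.95, 4.57 and 4.65 on the γ1/γ1 arrays and 5.05, 4.44 and 4.52 on the wild-type arrays. Its neighbour Igkv4-70 read 4.12, 3.87 and 3.63 in ε/ε, 3.75, 3.58 and 3.80 in γ1/γ1 and 3.82, 3.57 and 3.24 in wild-type cells. Both overlapped between all genotypes. The differences of Igkv4-70 were 0.33 in ε/ε against wild-type (limma adjusted p = 0.309) and 0.16 in both other contrasts, and those of Igkv4-72 lay between 0.056 and 0.16.

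Igkv8-30 and Igkv1-133 varied more between arrays of 1 genotype than between genotypes. Igkv8-30 read 3.97, 3.13 and 4.65 on the ε/ε arrays, 4.64, 3.87 and 4.68 on the γ1/γ1 arrays and 4.08, 3.40 and 4.02 on the wild-type arrays, and replicate 2 was the lowest in each genotype. It differed by 0.56 in γ1/γ1 against wild-type (SE 0.37, limma adjusted p = 0.799) and by -0.48 in ε/ε against γ1/γ1 (SE 0.37, limma adjusted p = 0.5003). Igkv1-133 read 3.64, 3.10 and 4.53 in ε/ε, 4.61, 2.84 and 2.29 in γ1/γ1 and 3.20, 3.14 and 2.76 in wild-type cells. Its high readings were thus in 1 array of each mutant genotype, and its differences of 0.72, 0.21 and 0.51 in ε/ε against wild-type, γ1/γ1 against wild-type and ε/ε against γ1/γ1 had the largest SE of the members, at 0.53 (limma adjusted p = 0.438, 0.958 and 0.630). Without γ1/γ1 replicate 1 its γ1/γ1 difference from wild-type was -0.47.

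In numbers, 1 of the 9 members passed in ε/ε against wild-type, higher in ε/ε, where 6.34% of all genes tested passed; 2 had an unadjusted p under 0.05, as did 24.8% of all genes. In γ1/γ1 against wild-type 0 of 9 passed in limma, where 0.0411% of all genes did, and 2 had an unadjusted p under 0.05, as did 6.82% of all genes. In ε/ε against γ1/γ1 0 of 9 passed in limma, where 2.66% of all genes did, and 1 had an unadjusted p under 0.05, as did 19.9% of all genes. By the F test 1 of 9 passed, where 4.11% of all genes did. With so few members, 1 call is close to these shares. The 3 arrays of 1 genotype lay wholly above or below those of the other for 2 of 9 members, Igkv15-103 and Ighv1-53, in ε/ε against wild-type and in γ1/γ1 against wild-type, and for 0 of 9 in ε/ε against γ1/γ1. Over all genes tested the shares were 28.4%, 12.4% and 21.1%. The median difference over the 9 members was 0.16 in ε/ε against wild-type, 0.056 in γ1/γ1 against wild-type and 0.12 in ε/ε against γ1/γ1, beside -0.013, -0.018 and 0 over all genes. For the 4 T cell receptor V segments tested, of which 0 passed, the medians were 0.60, -0.082 and 0.70.

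In a fit of all 22180 named genes without the filter, 1 of 17 V segments passed in ε/ε against wild-type, again Igkv15-103 (limma adjusted p = 0.0218), where 2.72% of all genes passed. In that fit 0 of 17 passed in γ1/γ1 against wild-type and in ε/ε against γ1/γ1, where 0.0225% and 1.24% of genes passed, and 3 and 2 segments had an unadjusted p under 0.05, as did 6.22% and 16.7% of all named genes. The 8 V segments below the threshold thus added no call. The lowest adjusted p among them was that of Igkv6-14, which read 2.60 to 2.68 on the ε/ε arrays, 2.98 to 3.704 on the γ1/γ1 arrays and 2.90 to 3.21 on the wild-type arrays. Its ε/ε readings lay below all others, a difference of -0.74 from γ1/γ1 (limma adjusted p = 0.0883), at levels near or below the array medians.

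Signal outside the 9 members was also seen. Probe set 17284314 of Igh-VS107, an older heavy chain V name with no match in the gene table used, read 5.86, 5.56 and 5.51 on the ε/ε arrays, 4.59, 4.71 and 4.71 on the γ1/γ1 arrays and 4.71, 4.71 and 4.20 on the wild-type arrays. In a fit of all 41345 probe sets it rose in ε/ε by 1.11 over wild-type (SE 0.17, limma adjusted p = 0.0182), where 2.86% of probe sets passed, and by 0.98 over γ1/γ1 (SE 0.17, limma adjusted p = 0.0325), where 1.8% passed. All 3 ε/ε arrays lay above the other 6, of which 4 held the same deposited value of 4.7065, a value that 6 to 38 probe sets held on those arrays. The other probe set of Igh-VS107, 17284463, had an ε/ε difference from wild-type of 1.01 (SE 0.61, limma adjusted p = 0.427).

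Probe set 17284356, whose annotation joins a heavy chain V, a κ V and the IgM constant region symbol and so names no gene here, read 10.10, 10.30 and 10.22 on the ε/ε arrays, 9.25, 9.58 and 9.62 on the γ1/γ1 arrays and 10.98, 10.65 and 10.84 on the wild-type arrays. The 3 genotypes did not overlap, with wild-type highest and γ1/γ1 lowest. It fell by 1.34 in γ1/γ1 against wild-type (SE 0.15, limma adjusted p = 0.0240), where 0.0653% of probe sets passed. In ε/ε against wild-type the difference of this probe set was -0.62 (limma adjusted p = 0.0689), and in ε/ε against γ1/γ1 it was 0.72 (limma adjusted p = 0.0523). It was singled out after its values were seen. Ighm, the IgM constant region gene, had the same order by its brightest probe set: 11.37 (wild-type), 10.98 (ε/ε) and 9.41 (γ1/γ1). Its γ1/γ1 difference from wild-type was -1.96 (limma adjusted p = 0.0196). Other Ighm probe sets did not all keep this order, such as 17284503, lowest in ε/ε. The share of IgM constant region RNA in the signal of 17284356 was not tested. Of the other V probe sets with several symbols (17284354, 17284633, 17459415 and 17459423), none passed.

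**Figure D3:**
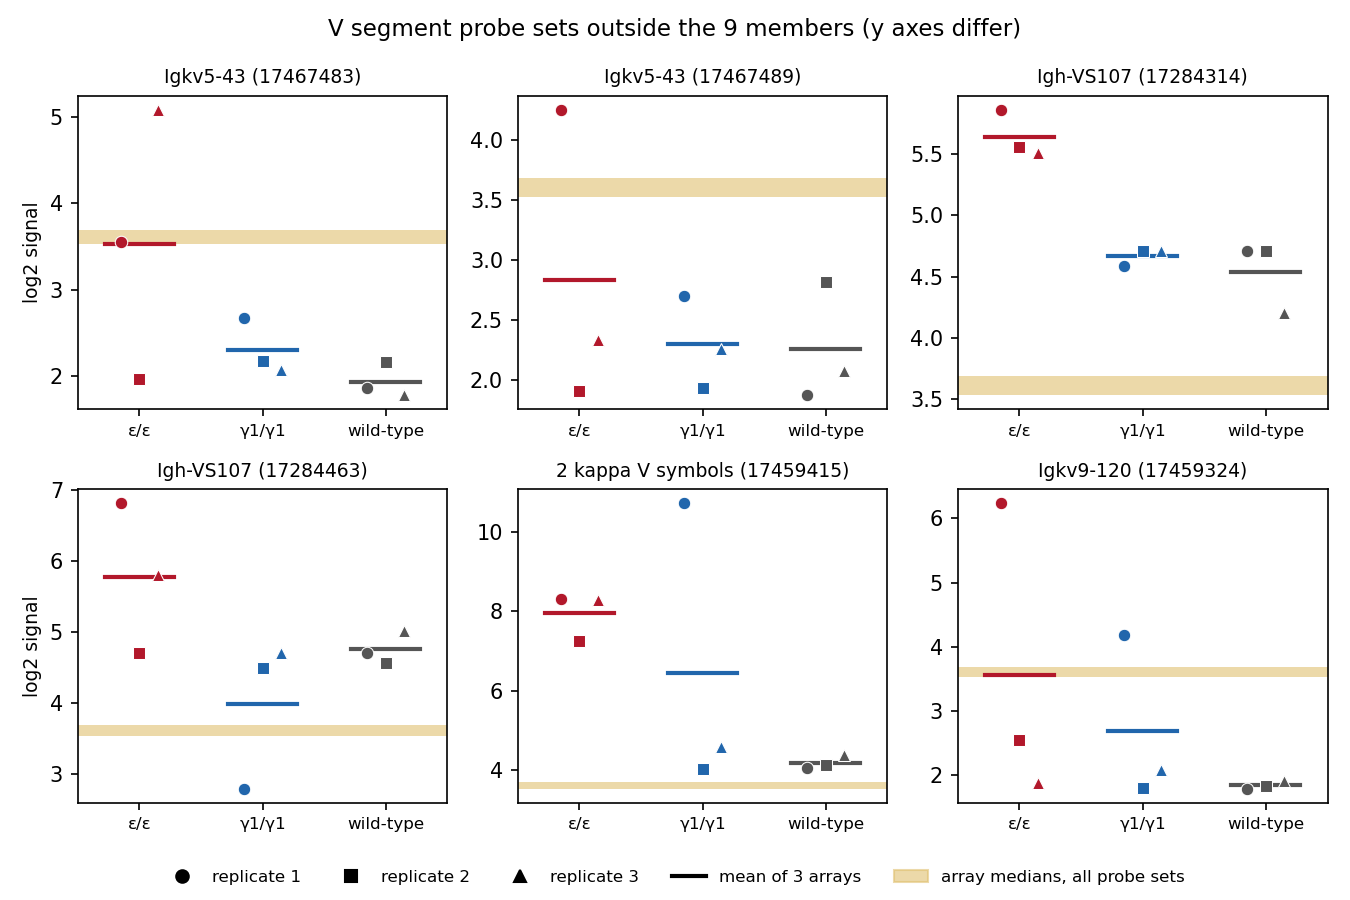
Log2 signal of 6 V segment probe sets outside the 9 members on the 3 arrays of ε/ε, γ1/γ1 and wild-type cells; bars are means of 3 arrays, the shaded band spans the array medians, and the y axes differ. Probe set 17459415, annotated with 2 κ symbols, reads 7.25 to 8.31 on the ε/ε arrays and 10.72 on 1 γ1/γ1 array, and Igkv9-120 lies above the band on 2 arrays.

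Segments known for their use in B-1 cells, a self-renewing B cell lineage, were of interest as a sign of other B cells in the sort. Igkv4-91, which B-1 cells use with the heavy chain segment Ighv12-3, read 3.10 to 3.83 on the ε/ε arrays, 2.71 to 3.31 on the γ1/γ1 arrays and 2.93 to 3.93 on the wild-type arrays, and the genotypes overlapped. Ighv11-1, Ighv11-2, Ighv12-3, Igkv14-126, Iglv2 and Iglv3 had no probe set with a single symbol and have no value here. Of 9 B-1 cell marker genes 7 were tested and 0 passed in limma in ε/ε against wild-type, γ1/γ1 against wild-type or ε/ε against γ1/γ1, where 6.34%, 0.0411% and 2.66% of all genes passed.

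Among 20 genes of the machinery that recombines and mutates V segments, 14 were tested. In ε/ε against wild-type 0 rose and 1 fell, where 2.33% and 4.02% of all genes rose and fell, and in the other contrasts 0 passed. The one that fell was Prkdc, the catalytic subunit of the DNA-dependent protein kinase that joins broken ends during recombination, which had mean levels over 3 arrays (± SD) of 5.71 ± 0.04 for ε/ε, 6.00 ± 0.12 for γ1/γ1 and 6.38 ± 0.22 for wild-type cells, a difference of -0.67 in ε/ε against wild-type (SE 0.15, limma adjusted p = 0.0284). Rag2, of the recombinase that cuts beside V segments, and Dntt, which adds bases at the joints, were above the array median on 1 and 2 arrays and were not tested. Of the surrogate light chain genes, whose products stand in for the light chain in precursors, Vpreb1 was below the array medians on all 9 arrays and Igll1 above on 1, while Vpreb2 differed by 0.43 in ε/ε against wild-type (limma adjusted p = 0.216).

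Plasma cells transcribe immunoglobulin genes at far higher rates than follicular B cells, so their markers were read beside the V segments. Of 15 plasma cell markers with a probe set 12 were tested, and 0 passed in limma in any of the 3 contrasts, beside the same 6.34%, 0.0411% and 2.66% of all genes. The mean over the list was 5.21 to 5.26 on ε/ε arrays, 5.11 to 5.17 on γ1/γ1 arrays and 5.15 to 5.23 on wild-type arrays. Xbp1, the transcription factor that expands secretion, had mean levels over 3 arrays (± SD) of 5.96 ± 0.43 for ε/ε, 5.02 ± 0.34 for γ1/γ1 and 5.001 ± 0.34 for wild-type cells, a difference of 0.96 between ε/ε and wild-type that missed the threshold (limma adjusted p = 0.0559). Xbp1 had the largest difference of the 12; the lowest was that of Fkbp11, a prolyl isomerase of the secretory pathway, at -0.66 (limma adjusted p = 0.256), and the median of the list was 0.060, beside -0.013 over all genes.

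**Figure D4:**
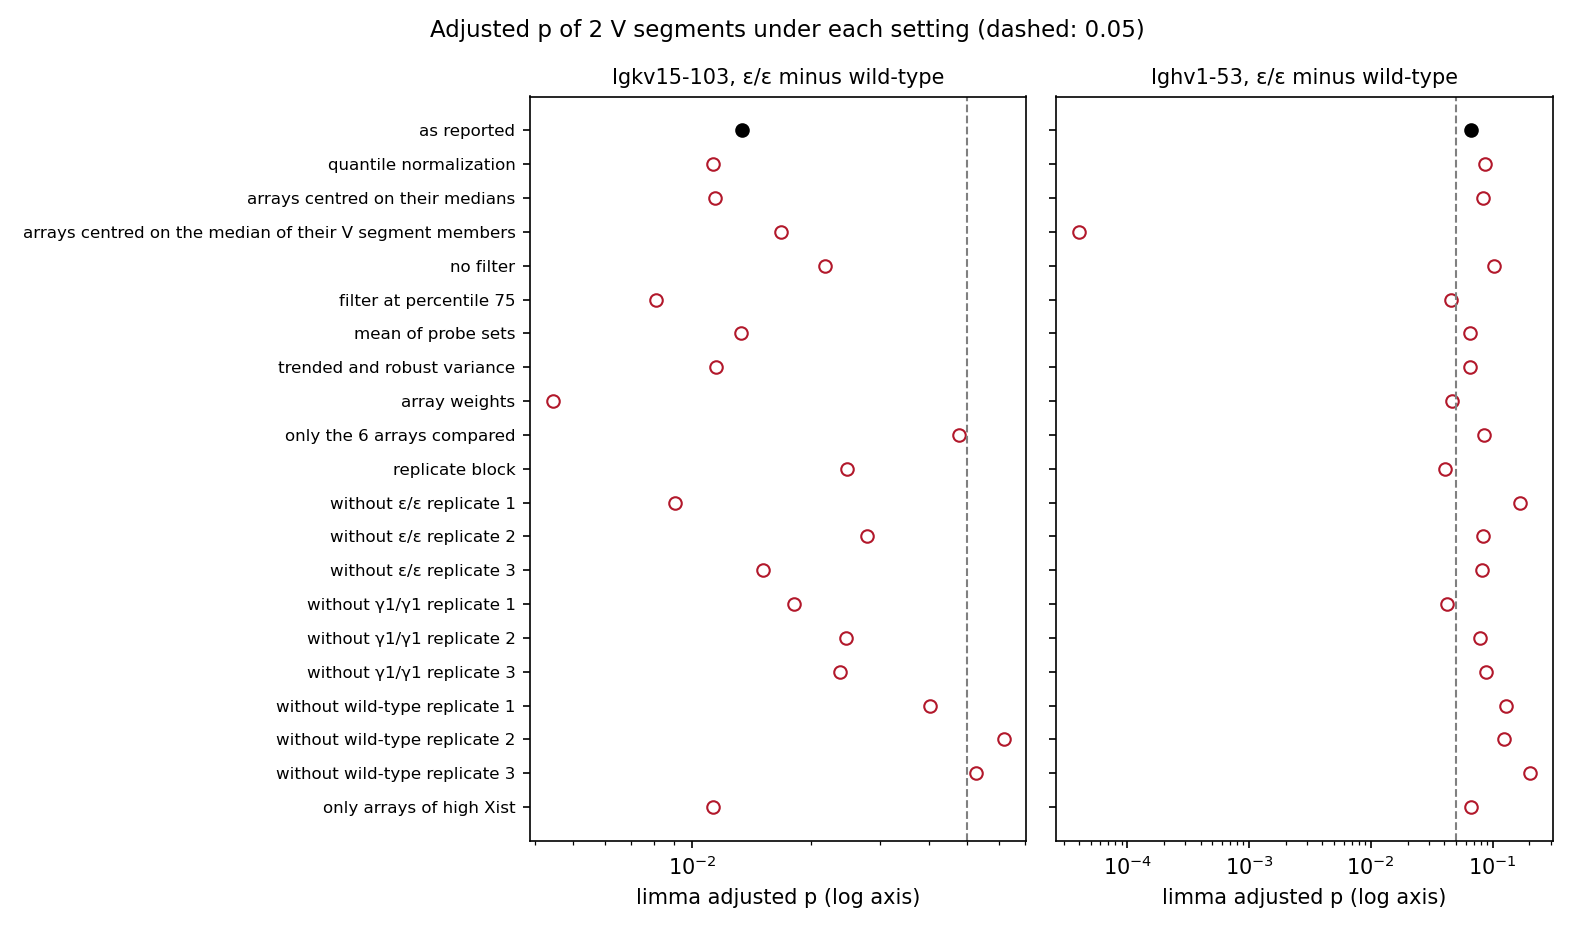
Limma adjusted p (log axis) of the ε/ε minus wild-type difference of Igkv15-103 and Ighv1-53 as reported (filled) and under each other setting (open); the dashed line is the threshold of 0.05. Igkv15-103 lies beyond the line when wild-type replicate 2 (0.0618) or 3 (0.0524) is left out, and Ighv1-53, at 0.0659 as reported, lies on either side.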

How the data were processed

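Sorted splenic follicular B cells were profiled on 9 single-colour arrays. Per the labels' protocols, 54 to 360 ng of RNA extracted with TRIzol was amplified and labelled with biotin using Nugen kits. The authors deposited 1 log2 value per array for each of 41345 probe sets. R 3.3.1 is named per the submitters' processing notes; no source used here gives the background correction, normalization or probe summary. The number of arrays limits the precision.

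Of the probe sets, 23521 carried 1 gene symbol in the platform's annotation, and 1814 with several were used to name no gene. Where a gene had several, the one of highest mean was used. limma 3.58.1 (R 4.3.3; lmFit and eBayes, genotype as the only term, 6 residual degrees of freedom) was run on genes above the array median on at least 3 arrays, and was tested on simulated data. Intervals are 95% ones of that model. Same-numbered replicates were not paired in the model. Their deviations from genotype means correlated at -0.091 to 0.16, which does not settle whether they were processed together. Plots came from matplotlib 3.10.9 (Python 3.11.15).

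Members, marker lists and alternatives (filter, scaling, weights, replicates left out, replicate block, low-Xist arrays) were chosen with earlier results of these data known. Named genes were the 5 brightest members per locus, calls without overlap between groups (up to 8 each way) or else the 6 members of smallest p per contrast, members of widest and narrowest range or at the threshold, λ and B-1 segments, and up to 2 genes per list. GRCm38.p6 gave gene order only.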

Additional observations from a re-analysis of the deposited data

Results flagged for a closer look

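Among V segment probe sets outside the 9 members, 6 had a mutant array more than 1 (log2) above every wild-type array, and they were singled out after their values were seen. The signal with the largest excess over wild-type was that of probe set 17459415, whose annotation joins 2 κ V segment symbols. It read 8.31, 7.25 and 8.29 on the ε/ε arrays, 10.72, 4.03 and 4.58 on the γ1/γ1 arrays and 4.05, 4.12 and 4.38 on the wild-type arrays. All 3 ε/ε arrays were high, and of the γ1/γ1 arrays replicate 1 alone. In a fit of all probe sets the ε/ε difference from wild-type was 3.76 (SE 1.52, limma adjusted p = 0.241). The reading of 10.72 falls on an array of low Xist, and the high ε/ε readings fall on arrays of both kinds.

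Igkv9-120, a κ segment below the threshold on level, read 6.23, 2.55 and 1.88 on the ε/ε arrays, 4.18, 1.80 and 2.08 on the γ1/γ1 arrays and 1.79 to 1.91 on the wild-type arrays. Its 2 readings above the array medians are on the 2 arrays of low Xist, ε/ε replicate 1 and γ1/γ1 replicate 1. The part of what set those 2 samples apart was not tested.

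Igh-VS107, an older heavy chain V name whose gene identifier was not matched in the gene table used, had 2 probe sets. Probe set 17284314, whose ε/ε values all exceed the rest, reached 5.86 in ε/ε replicate 1, against at most 4.71 on the wild-type arrays. Probe set 17284463 read 6.81, 4.70 and 5.80 on the ε/ε arrays against 4.56 to 5.01 on the wild-type arrays (difference 1.01, limma adjusted p = 0.427).

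The dimmer probe sets of Igkv5-43 reached 5.08 in ε/ε replicate 3 (17467483) and 4.25 in ε/ε replicate 1 (17467489), where the wild-type arrays reached 2.16 and 2.82.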

How the results depend on the processing

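Across 22 other settings of the ε/ε against wild-type comparison, 14 kept the count of 1 V segment. It was 2 with the filter at percentile 75, with array weights, with an adjusted p under 0.1 and with the replicate block, and 4 with each array centred on the median of its V segment members. Leaving out 1 array gave 0 (wild-type replicate 2 or 3) to 2 (γ1/γ1 replicate 1). The γ1/γ1 against wild-type count was 1 with that centring and 0 otherwise, and ε/ε against γ1/γ1 gave 0 throughout. By the F test the count was 0 without a filter and with the replicate block, 2 with array weights or an adjusted p under 0.1, 2 with the V segment centring (Ighv1-53 and Igkv6-23, not Igkv15-103), and 0 to 1 with 1 array left out (0 without ε/ε replicate 2, γ1/γ1 replicate 2 or 3, or any wild-type array). The block assumes a pairing of same-numbered replicates. Their deviations correlated at -0.09 to 0.16, which does not settle whether they were processed together. With the block, Ighv1-53 passed in ε/ε against wild-type (limma adjusted p = 0.0409).

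The V segment centring subtracts a member from the members (Igkv15-103 on 4 arrays). Under it the Igkv15-103 difference in ε/ε against wild-type was 0.97 (limma adjusted p = 0.0168), against 1.74 as reported. The Ighv median difference was -1.83 in ε/ε against wild-type; the Igkv medians were -0.61, -0.23 and -0.27 in ε/ε against wild-type, γ1/γ1 against wild-type and ε/ε against γ1/γ1; and the Iglv values were -0.46 and -0.48 in ε/ε and γ1/γ1 against wild-type. With this centring the 4 segments called in ε/ε against wild-type were Igkv15-103, higher, and Ighv1-53, Igkv5-43 and Igkv6-23, lower. Igkv5-43 had differed by 0.069 as reported, so its sign turned. Differences were followed over settings only for the 6 members of smallest p per contrast. Among those, signs turned for Igkv4-70 (-0.44, -0.23 and -0.21 in the 3 contrasts), Igkv1-133 (-0.044 in ε/ε and -0.19 in γ1/γ1 against wild-type) and Iglv1 (-0.46 in ε/ε against wild-type). The Igkv1-133 difference in γ1/γ1 against wild-type was -0.47 on the arrays of high Xist and -0.47 to 0.69 with 1 array left out, and that of Igkv6-23 in ε/ε against γ1/γ1 was -0.27 to 0.027. Of 352 values of the members so followed, 334 kept direction and call.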
